A study of Mus musculus with 14 samples.

Results

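The genes described here are 10 genes listed for the glandular stomach of the mouse. Pgc, Pga5 and Cym encode pepsinogens and prochymosin, and Atp4a and Atp4b the 2 subunits of the acid pump. Gast is a hormone gene and Cckbr its receptor gene, and Sox2, Nkx6-3 and Barx1 are transcription factor genes. Each of the 10 was taken as the row of the expression table whose platform annotation gives that symbol alone. The choice rests on names and not on a threshold of signal. All 10 were found, each on 1 row, among 19938 genes with a single symbol. They were read in duodenal tissue from mice lacking Lrig1, a transmembrane brake on ErbB receptor signalling, and from wildtype mice. The 14 arrays came from 9 mice. The wildtype group held normal proximal duodenum of 3 wildtype mice. The adjacent group held normal duodenum next to a tumor in 5 mice of genotype Lrig1-CreERT2/CreERT2 (Lrig1-/-), and the tumor group held duodenal tumors of 6 mice of that same genotype, so that adjacent and tumor tissue carry the same 2 disrupted alleles. Adjacent tissue and tumor share 5 mice. All mice were on a mixed background given as 129S7/SvEv and C57/BL6; they were age-matched, with no age or treatment given in the labels. The deletion is in the whole animal, and 1 tumor was read per mouse.

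The glandular stomach divides its work among cell types. Chief cells at the gland base secrete pepsinogens, aspartic proteases that acid turns into pepsin. Parietal cells pump acid with an H+,K+-ATPase made of a catalytic alpha subunit, Atp4a, and a beta subunit, Atp4b. G cells of the antrum, the part next to the duodenum, secrete gastrin, which acts through the receptor Cckbr on parietal cells and on histamine-secreting enterochromaffin-like cells. Pgc is wider in range than Pga5: mucous neck cells, antral glands and the Brunner glands of the duodenum also make it. Sox2 is a transcription factor of foregut epithelium, which the intestine lacks. Nkx6-3 is a homeobox factor of the antrum and proximal duodenum, and Barx1 belongs to the mesenchyme of the developing stomach.

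Promoter sequence was at hand for 7 of the 10 genes, from RefSeq on build GRCm38.p6, and 3 windows of 250 bases ending at the base before the transcription start are shown because these genes behaved most differently across the arrays: Pgc was high in every tumor, Gast was high in a minority of arrays, and Atp4a was flat. Capitals mark matches to the TATA box letters TATAAA or the CACCC box letters CACCC on either strand; no marked matches overlap.
Pgc, chr17:47726592-47726841, plus strand: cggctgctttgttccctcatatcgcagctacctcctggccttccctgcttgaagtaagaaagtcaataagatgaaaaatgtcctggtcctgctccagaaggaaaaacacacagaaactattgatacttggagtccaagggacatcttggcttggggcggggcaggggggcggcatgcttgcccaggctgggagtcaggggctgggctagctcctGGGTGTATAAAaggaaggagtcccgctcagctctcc
Gast, chr11:100334157-100334406, plus strand: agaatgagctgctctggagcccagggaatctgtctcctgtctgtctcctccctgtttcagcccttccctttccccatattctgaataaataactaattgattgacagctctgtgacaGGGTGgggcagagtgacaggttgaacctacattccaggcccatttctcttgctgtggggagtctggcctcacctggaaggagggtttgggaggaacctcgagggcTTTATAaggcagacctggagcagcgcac
Atp4a, chr7:30711959-30712208, plus strand: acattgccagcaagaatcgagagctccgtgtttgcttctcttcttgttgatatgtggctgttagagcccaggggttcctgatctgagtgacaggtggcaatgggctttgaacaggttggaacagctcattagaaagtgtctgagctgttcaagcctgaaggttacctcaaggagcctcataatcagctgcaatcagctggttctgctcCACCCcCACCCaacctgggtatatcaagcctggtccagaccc
The Pgc window held TATAAA beginning 31 bases before the start and the Gast window held its reverse complement 28 bases before it. The Atp4a window held no TATAAA and 2 copies of CACCC, beginning 42 and 36 bases before the start. TATAAA occurred in 12.4% and CACCC in 52% of 32851 RefSeq promoter windows of the same length. Among the 7 windows TATAAA was also found in Cym. The SOX core ACAAT and the homeobox core TAATTA, which occur in 27.7% and 4.84% of all windows, were found in none of the 7. These are letter matches in 1 window per gene and say nothing of binding.

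Some arrays stood apart in ways that touch these genes. Wildtype replicate 1 carried gastric mucous cell genes at tumor level: the mean log2 signal of 8 gastric pit genes was 13.4 there, against 6.79 and 7.29 in the other wildtype arrays, 6.3 to 8.18 in adjacent tissue and 11.9 to 13.9 in tumors. The mean of 8 duodenal enterocyte genes was 11.8 there, 13 and 12.8 in the other wildtype arrays, and 10.7 to 11.1 in tumors. Whether that sample held stomach tissue or carries a wrong label was not tested. Wildtype values of the 10 genes are therefore given for each array. Differences between tumor and wildtype are also given without that array for Pgc, Gast and Nkx6-3. Differences in the further gene lists are those of tumor versus adjacent tissue unless stated. Pancreatic acinar genes (10 measured) averaged 12.6 and 12 in replicates 1 and 3 of the wildtype group, 11.8 and 13.1 in replicates 1 and 2 of the adjacent group, and at most 8.79 elsewhere. Lrig1 itself lay at 8.22 to 9.54 in wildtype, 6.95 to 7.40 in adjacent and 7.65 to 8.54 in tumor arrays. The labels call the normal samples epithelium, yet the mean of 8 smooth muscle genes was 9.39 to 10.9 in them. The first letter of the mouse ID, F or B, splits every group, and its meaning is not given. Values are log2 array signal throughout. In bulk tissue, fewer cells of a type and less RNA per cell cannot be told apart.

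Among the 10 genes, Pgc and Nkx6-3 were higher in tumors than in the adjacent duodenum, and the other 8 did not pass the test. Pgc rose 32.2-fold and Nkx6-3 6.85-fold. The acid pump genes Atp4a and Atp4b stayed within 0.65 log2 units over all 14 arrays. Gast and Sox2 were highest on the same 3 arrays, 2 of them tumors and 1 wildtype. For Gast the third of these lay only 0.30 log2 units above the next array, against 1.31 for Sox2. The test was limma's moderated test at an adjusted p of 0.05, Benjamini-Hochberg over all 19938 genes. In tumor versus adjacent tissue 2 of 10 genes rose, against 19.1% of all genes raised and 31.7% called in either direction, and the median log2 fold change was 0.25 for the 10 genes and 0.04 for all genes. In tumor versus wildtype 1 of 10 rose (Pgc), against 9.65% raised and 14.1% called of all genes, with medians of 0.00 for both. In adjacent tissue versus wildtype 0 of 10 passed, and of all genes 0 (0%) passed in limma, with 559 at an unadjusted p under 0.05 (0 of the 10) and 1691 called when limma's array weights were used.

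**Figure D1:**
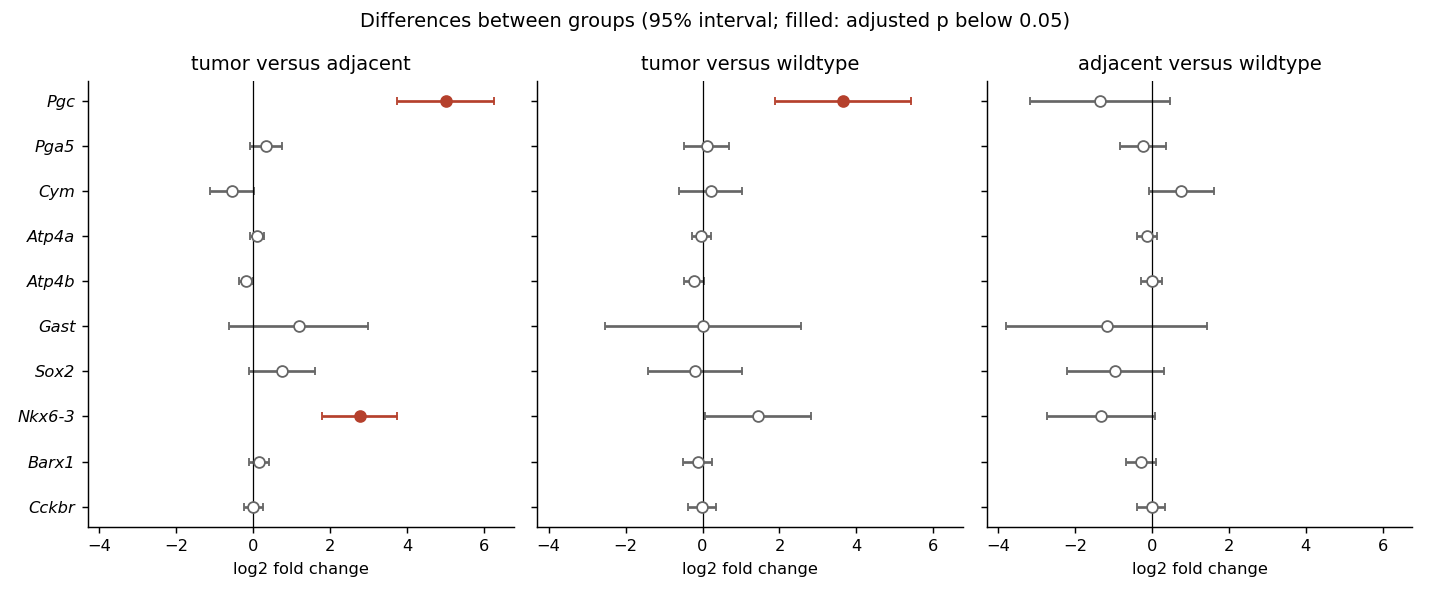
Log2 fold changes (x axis) of the 10 stomach genes in the 3 comparisons, with 95% intervals; filled red points passed an adjusted p of 0.05. Pgc passed in both tumor comparisons and Nkx6-3 in tumor versus adjacent only, and the intervals of Gast are the widest.

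Pgc, the gene of pepsinogen C, was the only one of the 3 protease genes to pass. It lay at 7.74, 7.20, 6.95, 7.16 and 7.31 in the 5 adjacent arrays, and ran from 11.25 through a median of 11.76 to 13.79 in the 6 tumors. Every tumor was above every adjacent array, with a gap of 3.51 log2 units between the groups. The log2 fold change was 5.01 ± 0.59 (SE; adjusted p = 1.68e-05 in limma), and the tumor was higher in 5 of 5 mice, by 4.08 to 6.59. Tumor replicates 3 and 5 held the highest Pgc, at 13.79 and 13.25, while the other 4 tumors lay between 11.25 and 11.82.

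In wildtype duodenum Pgc was split: 11.50 in replicate 1 against 6.87 and 7.31 in replicates 2 and 3. Replicate 1 lay inside the range of the tumors, and is the array with gastric pit genes at tumor level. Tumors were above wildtype by 3.66 ± 0.83 (12.6-fold, adjusted p = 0.00995), with overlap of the groups through that array. Without wildtype replicate 1 the difference was 5.13 ± 0.57 (adjusted p = 4.26e-05). Without wildtype replicate 2 or 3 it was 2.81 (adjusted p = 0.0851) or 3.03 (adjusted p = 0.0766), so the call against wildtype rested on the 2 low wildtype arrays. Among mice with an ID starting with F, whose only wildtype array is replicate 1, it was 0.78 ± 0.93 (adjusted p = 0.868), and among those starting with B, 5.06 ± 0.46 (adjusted p = 0.000153).

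Pga5, the gene of pepsinogen A and a product of chief cells, did not follow Pgc. It lay at 6.36, 6.62 and 6.81 in wildtype, at 6.17 to 6.74 in adjacent tissue and at 6.15 to 7.54 in tumors, and the groups overlapped. The 2 highest values were those of tumor replicate 5 (7.54) and tumor replicate 3 (7.05), the same tumors that were highest for Pgc. The difference between tumor and adjacent tissue was 0.34 ± 0.19 (95% interval -0.07 to 0.75, adjusted p = 0.213), and it was -0.01 ± 0.11 without tumor replicates 3 and 5 and wildtype replicate 1.

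Cym encodes prochymosin, the milk-clotting protease of the suckling stomach. Its signal was 8.51, 9.50 and 9.40 in wildtype, 9.48 to 10.30 with a median of 9.93 in adjacent tissue, and 8.0 to 10.39 with a median of 9.42 in tumors. The lowest arrays were tumor replicate 3 (8.0) and wildtype replicate 1 (8.51), so Cym was lowest on arrays where Gast and Sox2 were highest. Over the 14 arrays its r was -0.821 with Gast and -0.86 with Sox2. Cym therefore did not behave as a stomach marker in these samples. Tumor against adjacent tissue gave -0.55 ± 0.27 (95% interval -1.12 to 0.03, adjusted p = 0.149), lower in 4 of 5 mice. Leaving out tumor replicate 6 brought it to -0.75 (adjusted p = 0.0481), and leaving out tumor replicate 3 to -0.29 (adjusted p = 0.343).

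**Figure D2:**
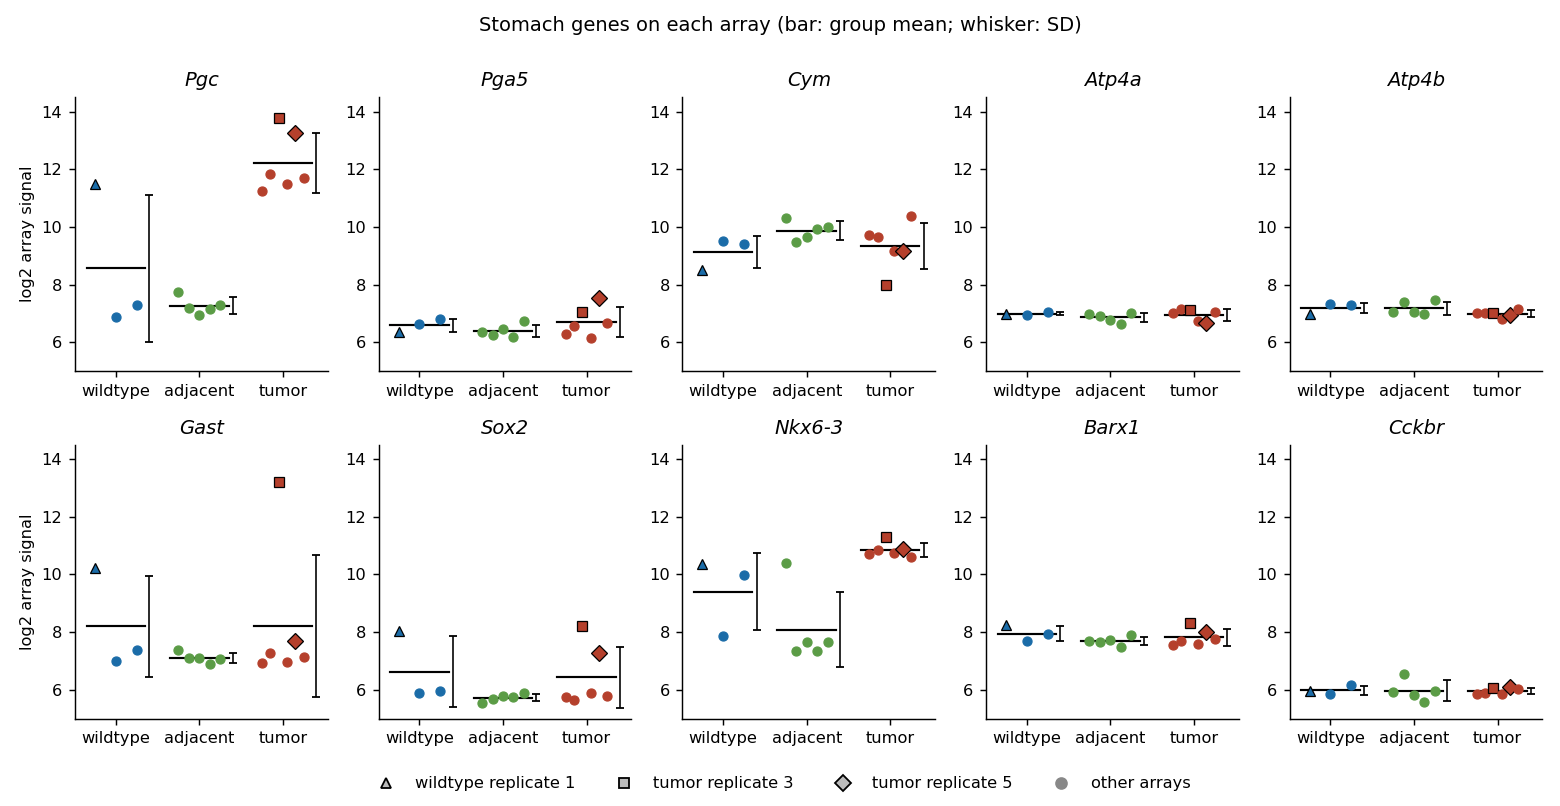
Log2 array signal (y axis) of each of the 10 genes on every array in the 3 groups; bars are group means, whiskers SDs, and the marked points are wildtype replicate 1 (triangle), tumor replicate 3 (square) and tumor replicate 5 (diamond). Pgc and Nkx6-3 separate tumors from adjacent tissue, and Atp4a and Atp4b are level. Sox2 is high at the marked points, and Gast is high at the triangle and the square, with the diamond at 7.69.

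Among 8 measured aspartic protease genes 5 rose and 1 fell in tumor versus adjacent tissue (median 1.16). For this and the later lists the shares to compare are those of all genes, 19.1% raised and 31.7% called in either direction. Ctse, a cathepsin of stomach surface cells, rose by 4.01 ± 0.73 (adjusted p = 0.000618), from 10.01 ± 1.88 (SD, n = 5) to 14.01 ± 0.06 (n = 6). The membrane proteases Bace2 (3.42 ± 0.36, adjusted p = 6.94e-06) and Bace1 (1.59 ± 0.15, adjusted p = 3.08e-06) and the lysosomal Ctsd (0.72) rose as well, and Napsa, an aspartic protease of lung and kidney, fell by 0.38. These changed genes besides Pgc are not pepsinogens. Of 6 chief cell genes (median 0.12) 1 rose, Rab3d (1.58 ± 0.30, adjusted p = 0.000859), a small GTPase of secretory granules that pancreatic acinar cells share. Rab3d read 10.49 in adjacent replicate 2, inside the tumor range of 10.26 to 11.36. With only the normal arrays that carry acinar transcripts kept, Rab3d did not pass (1.05, adjusted p = 0.18). Among mice with ID letter F its difference was 0.98. Gastric lipase, Lipf, stayed at 4.9 to 5.4 over all arrays. Cblif, the gene of intrinsic factor, which chief cells make in the mouse, was at 11.50 in tumor replicate 3, 7.62 in tumor replicate 5 and 7.41 in wildtype replicate 1, and between 6.32 and 6.97 in the other arrays. Its group difference was 1.16 ± 0.61 (adjusted p = 0.181).

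Neither acid pump gene passed the test in any comparison. Atp4a was at 6.99, 6.95 and 7.04 in wildtype, 6.99, 6.92, 6.77, 6.62 and 7.02 in adjacent tissue, and 6.66 to 7.17 with a median of 7.04 in tumors. All groups overlapped, and the array with the highest Gast read 7.11 here. The difference between tumor and adjacent tissue was 0.09 ± 0.08 (95% interval -0.08 to 0.27, adjusted p = 0.449). Atp4b was at 6.99, 7.32 and 7.28 in wildtype, 7.05, 7.39, 7.04, 6.97 and 7.45 in adjacent tissue, and 6.80 to 7.15 in tumors. Tumors were lower in 5 of 5 mice, by 0.02 to 0.38, and the groups overlapped. The difference was -0.19 ± 0.09 (95% interval -0.38 to -0.01, adjusted p = 0.11), and after centring each array on its median, -0.27 (adjusted p = 0.0264). After quantile normalization it was -0.24 (adjusted p = 0.0231). No detection call comes with these values, so whether such levels are background was not tested.

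Of 11 other parietal cell and acid secretion genes 6 rose and 1 fell in tumor versus adjacent tissue (median 0.49). The largest increases were in Slc9a4 (4.67 ± 0.49, adjusted p = 6.94e-06), a sodium-proton exchanger, and Slc26a9 (3.64 ± 0.36, adjusted p = 5.16e-06), a chloride channel that surface cells also carry. Slc9a4 was 6.66 to 7.09 in adjacent arrays and 10.85 to 12.14 in tumors, without overlap. Clic6 (0.85), the potassium channel gene Kcnq1 (0.75), Slc26a7 (0.50) and the anion exchanger gene Slc4a2 (0.49) rose less. Esrrg, a nuclear receptor of parietal cells, fell by 0.87 (± 0.11, adjusted p = 2.66e-05). The histamine receptor gene Hrh2 (-0.15, adjusted p = 0.0986) and the pump's partner channel subunit gene Kcne2 (0.30, adjusted p = 0.0502) did not pass. Kcnj15, another potassium channel gene of parietal cells, read 8.40 in tumor replicate 3 and 6.69 to 7.23 in every other array; its difference was 0.05 ± 0.22 (adjusted p = 0.908), and without tumor replicate 3 -0.24 ± 0.07 (adjusted p = 0.016). Kcne2 passed without any one of wildtype replicates 1 and 3 or tumor replicates 1 and 4 (lowest adjusted p = 0.0284), and Slc4a2 did not without tumor replicate 4 (0.0519).

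Gast was high on few arrays and near 7 on the rest. It was 10.22, 6.99 and 7.38 in wildtype, 7.37, 7.11, 7.09, 6.89 and 7.06 in adjacent tissue, and in tumors 6.94, 7.28, 13.22, 6.96, 7.69 and 7.15. Tumor replicate 3 and wildtype replicate 1 stood far above the others, tumor replicate 5 came next, and the groups overlapped. Within mice the tumor exceeded its adjacent tissue by 6.11 in the mouse of tumor replicate 3, and in the other 4 mice the difference ran from -0.13 to 0.80, with the tumor higher in 3 of 5 mice overall. The group difference of 1.19 ± 0.84 (95% interval -0.62 to 2.99, adjusted p = 0.341) was 0.12 ± 0.37 without tumor replicate 3. Against wildtype it was 0.01 ± 1.19 (adjusted p = 0.998), and the value turned on the 2 highest arrays: it was -0.99 ± 0.52 without tumor replicate 3 (adjusted p = 0.262) and 1.02 ± 1.28 without wildtype replicate 1 (adjusted p = 0.594).

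**Figure D3:**
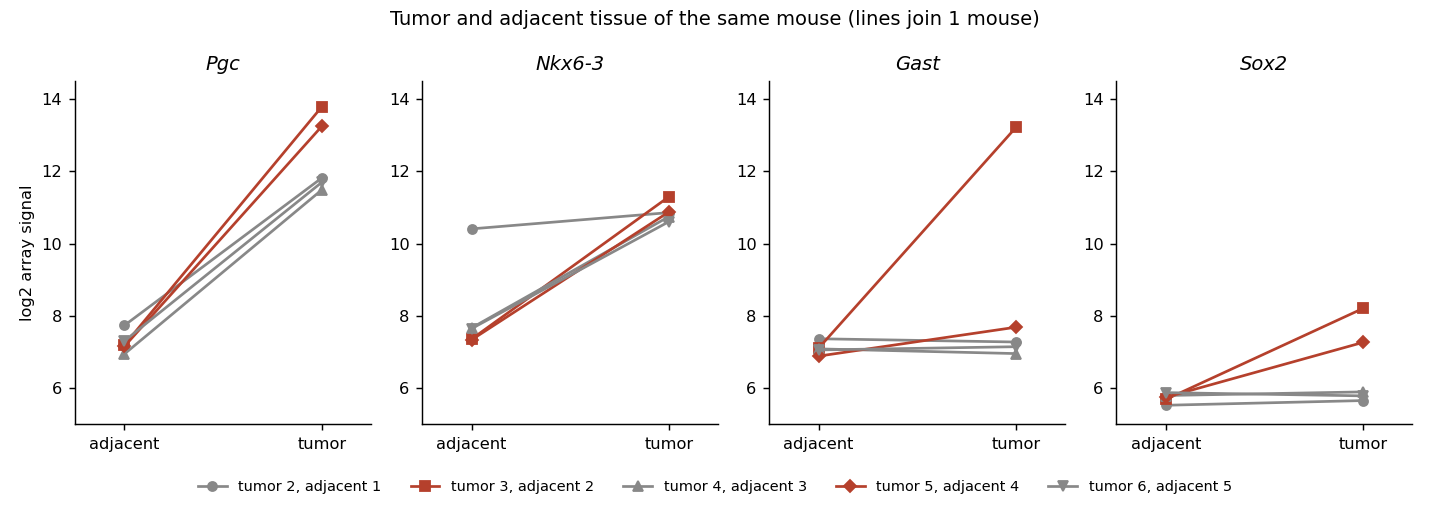
Log2 array signal (y axis) of Pgc, Nkx6-3, Gast and Sox2 in adjacent tissue and tumor, with a line for each of the 5 mice read in both; red lines are the mice of tumor replicates 3 and 5. All 5 lines climb for Pgc and Nkx6-3, whereas for Gast and Sox2 the red lines climb and the grey lines are nearly level.

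The genes that process gastrin or mark G cells did not share this pattern as a group. Of 11 measured, 1 rose and 1 fell in tumor versus adjacent tissue (median 0.04); without tumor replicate 2, 2 rose and 2 fell. Pam, the enzyme that amidates gastrin and many other peptides, rose by 2.11 ± 0.28 (adjusted p = 4.69e-05), and the prohormone convertase gene Pcsk1 fell by 0.74 (± 0.19, adjusted p = 0.00831; 0.0544 with mouse as a fixed block). Chromogranin A, Chga, a granule protein of endocrine cells at large, was highest in tumor replicate 3 (11.57) and 9.26 to 11.22 elsewhere. Its difference was -0.72 ± 0.26 (adjusted p = 0.0516), and it passed as lower without tumor replicate 3 (-0.96 ± 0.21, adjusted p = 0.00296), tumor replicate 2 (adjusted p = 0.034) or adjacent replicate 2 (adjusted p = 0.0366). Among 7 enteroendocrine transcription factor genes (median -0.14) 2 fell, Neurod1 by 1.00 (± 0.16, adjusted p = 0.000266) and Nkx2-2 by 0.27 (adjusted p = 0.0335); Nkx2-2 lost its call without any one of adjacent replicates 2, 3, 4 and 5 or tumor replicates 4, 5 and 6 (largest adjusted p = 0.0956). Among 8 genes of D cells, enterochromaffin-like cells and gastrin response (median -0.08), somatostatin (Sst) fell by 1.79 (± 0.39, adjusted p = 0.00263), Cck fell by 1.35 (± 0.23, adjusted p = 0.000398) and the histidine decarboxylase gene Hdc rose by 0.29 (adjusted p = 0.0128; 0.0829 with mouse as a fixed block and 0.0632 after median-centring). Sst was 12 in tumor replicate 3 and 8.55 to 10.82 in the other tumors. With only the normal arrays that carry acinar transcripts kept, Sst (-1.42, adjusted p = 0.221) and Cck (-1.32, adjusted p = 0.0683) did not pass. Pcsk1 (-0.55, adjusted p = 0.338) and Neurod1 (-0.89, adjusted p = 0.0559) did not pass there either. Among mice with ID letter F the differences were -0.65 for Sst, -0.98 for Cck, -0.27 for Pcsk1 and -0.61 for Neurod1. Ghrl, the ghrelin gene, was also highest of the tumors in replicate 3, at 10.97.

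Cckbr, the gastrin receptor gene, was 5.95, 5.84 and 6.15 in wildtype, 5.92, 6.56, 5.82, 5.59 and 5.97 in adjacent tissue, and 5.85 to 6.09 in tumors. The groups overlapped in full, and the tumor with gastrin at 13.22 read 6.07. The difference between tumor and adjacent tissue was 0.00 ± 0.12 (95% interval -0.25 to 0.25, adjusted p = 0.998). The highest value, 6.56, belonged to adjacent replicate 2, the array with the highest acinar mean. That array also held the related receptor gene Cckar, of pancreas and gallbladder, at 12.42 and the secretory factor gene Bhlha15 at 12.31, and their part in the Cckbr value was not tested. Without it the Cckbr difference was 0.14 ± 0.08 (adjusted p = 0.251).

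Nkx6-3 was at one level in all tumors and at either of 2 levels in normal duodenum. It was 10.36, 7.88 and 9.98 in wildtype, 10.41, 7.36, 7.67, 7.34 and 7.65 in adjacent tissue, and 10.61 to 11.30 with a median of 10.81 in tumors. The groups of tumor and adjacent arrays did not overlap, by a margin of 0.21, because adjacent replicate 1 was nearly as high as the lowest tumor. The log2 fold change was 2.78 ± 0.45 (adjusted p = 0.000278), higher in 5 of 5 mice by 0.46 to 3.94, the smallest difference being in the mouse of adjacent replicate 1. Among mice with an ID starting with F alone it was 2.10 ± 0.76 (adjusted p = 0.151), and among those starting with B, 3.19 ± 0.35 (adjusted p = 0.000149). Against wildtype the groups also did not overlap, but the difference of 1.44 ± 0.64 did not pass (adjusted p = 0.163); it was 0.68 ± 0.64 without wildtype replicate 2, the one low wildtype array (adjusted p = 0.67), 1.92 ± 0.71 without wildtype replicate 1 (adjusted p = 0.0673) and 1.44 ± 0.40 without adjacent replicate 1, which enters the estimate of spread (adjusted p = 0.0279). Among ID letter B mice it was 1.81 ± 0.48 (adjusted p = 0.0292) and among letter F mice 0.60 ± 1.07 (adjusted p = 0.914).

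The 3 non-tumor arrays with high Nkx6-3 are 3 of the 4 with pancreatic acinar transcripts. The fourth, adjacent replicate 2, had the highest acinar mean (13.1) and Nkx6-3 at 7.36. Without these 4 arrays the tumor difference was 3.26 ± 0.13 against adjacent tissue (adjusted p = 2.05e-08) and 2.97 ± 0.24 against wildtype (adjusted p = 2.14e-05). With those 4 kept and the other 4 normal arrays left out it was 2.02 ± 0.56 (adjusted p = 0.0429) and 0.68 ± 0.60 (adjusted p = 0.673). The part of acinar tissue in the Nkx6-3 level was not tested. Pdx1, a homeobox factor of proximal duodenum and pancreas, was high on all 4 of these arrays, at 10.76 to 11.64, against 7.24 to 9.0 on the other non-tumor arrays. Enterocyte genes split the same arrays. S100g was 13.44 to 13.74 on the 4 arrays and 7.86 to 9.25 on the other non-tumor arrays, and Enpp7 was 6.77 to 8.86 against 11.90 to 13.28. Whether these arrays differ in position along the duodenum was not tested. Ctse was 12.11 to 13.94 on the 3 arrays with high Nkx6-3 and 10.38 on adjacent replicate 2.

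**Figure D4:**
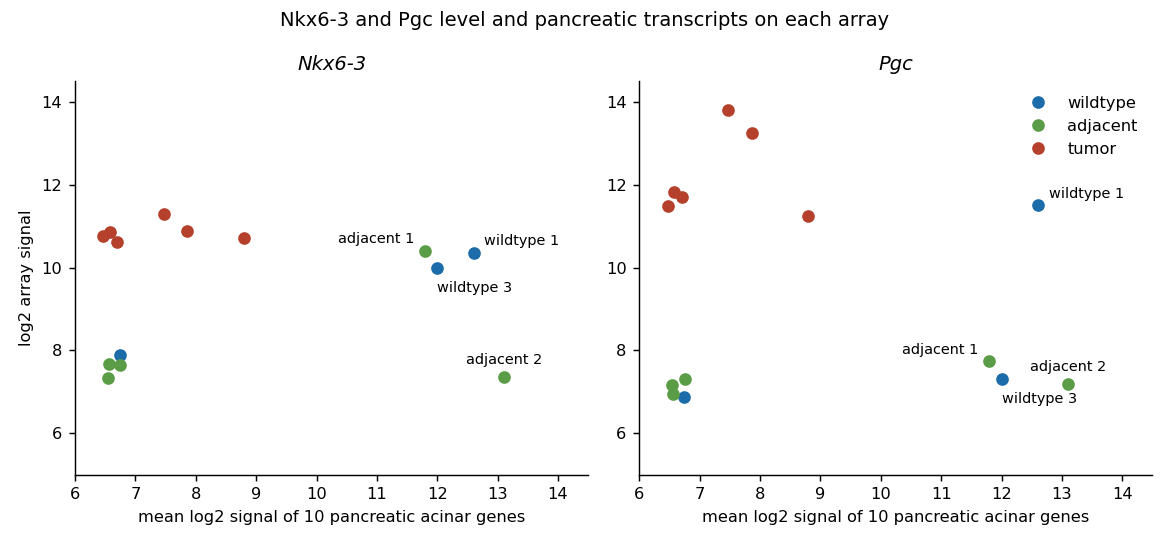
Log2 array signal of Nkx6-3 (left) and Pgc (right) on the y axis against the mean log2 signal of 10 pancreatic acinar genes on the x axis, 1 point per array coloured by group. Of the 4 labelled non-tumor arrays, 3 have Nkx6-3 near tumor level (9.98 to 10.41) and 1, wildtype replicate 1, has Pgc at tumor level.

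Sox2 was highest on the same 3 arrays as Gast. It was 8.04, 5.89 and 5.96 in wildtype, 5.53, 5.69, 5.80, 5.75 and 5.88 in adjacent tissue, and in tumors 5.76, 5.66, 8.21, 5.90, 7.27 and 5.79. Tumor replicate 3, wildtype replicate 1 and tumor replicate 5 were the 3 highest arrays, separated by 1.31 log2 units from the next. Tumor against adjacent tissue gave 0.75 ± 0.41 (95% interval -0.12 to 1.62, adjusted p = 0.195), and 0.05 ± 0.07 when those 3 arrays were left out (adjusted p = 0.686). Barx1 was 8.23, 7.70 and 7.92 in wildtype, 7.68, 7.67, 7.71, 7.48 and 7.91 in adjacent tissue, and 7.54, 7.69, 8.32, 7.60, 8.02 and 7.75 in tumors. Its 3 highest arrays were again tumor replicate 3, wildtype replicate 1 and tumor replicate 5, by a margin of only 0.10 over the next. Its difference was 0.15 ± 0.13 (95% interval -0.12 to 0.42, adjusted p = 0.433).

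Of 11 other transcription factor genes of the foregut and pylorus, 6 rose and 1 fell in tumor versus adjacent tissue (median 0.66). Foxa1, a pioneer factor of endoderm, rose by 3.08 ± 0.27 (adjusted p = 2.04e-06), from 8.90 ± 0.17 (SD, n = 5) to 11.93 ± 0.39 (n = 6). Sox21 (1.69), Foxq1 (1.51), Foxa3 (1.39), Onecut2 (0.66) and Foxa2 (0.42) rose too, Gata6 fell by 0.66, and Hnf4a (-0.01), Gata4 (-0.05), Gata5 (0.11) and Pdx1 (1.32) did not pass. Foxa2 lost its call without any one of adjacent replicates 1, 3, 4 and 5 or tumor replicates 3, 5 and 6 (adjusted p 0.0675 to 0.12), and Pdx1 passed without adjacent replicate 1 (1.84, adjusted p = 0.0341) or wildtype replicate 2 (adjusted p = 0.0472). Of 6 intestinal transcription factor genes 5 fell and none rose (median -0.69). With only the normal arrays that carry acinar transcripts kept, 2 of these 6 fell. In that setting 4 of the 11 foregut and pyloric genes were called, against 7 on all arrays. Among mice with ID letter F the differences were -0.20 for Cdx2, -0.28 for Cdx1 and -0.65 for Isx. In those mice Sox21 differed by 1.76, Foxa3 by 1.33, Foxq1 by 0.68 and Onecut2 by 0.32. Cdx2, which drives intestinal identity, fell by 0.49 (± 0.14, adjusted p = 0.0145), and without adjacent replicate 3 or 5 the difference was -0.43 or -0.46 (adjusted p = 0.0548 or 0.0506). Creb3l3 (-1.38), Hnf4g (-1.32), Isx (-0.88) and Cdx1 (-0.43) also fell, and the bile acid receptor gene Nr1h4 (-0.02) did not pass.

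Genes of stomach mesenchyme, the home of Barx1, were tested next. Of 10 measured, 2 rose and 8 did not pass (median 0.09), near the share of all genes raised, 19.1%. Sfrp1, a secreted Wnt inhibitor that Barx1 is known to control in the fetal stomach, rose by 1.17 ± 0.23 (adjusted p = 0.00104), from 7.9 to 9.4 in adjacent arrays to 9.5 to 10.2 in tumors. Sfrp2 rose by 0.38 (adjusted p = 0.0324), and 6 of the single arrays, when left out, took its adjusted p to between 0.0698 and 0.116. On all arrays it did not pass without the block (adjusted p = 0.0735), with mouse as a fixed block (0.098), after median-centring (0.109) or after quantile normalization (0.0591). Six2 (0.31, adjusted p = 0.0528) passed without any one of tumor replicates 4 and 6, adjacent replicate 5 and wildtype replicate 2, and Nr2f2 (0.37, adjusted p = 0.0778) without tumor replicate 1. None of 8 smooth muscle genes passed (median -0.22). The smooth muscle mean was highest on the 3 arrays with high Sox2, at 10.8 in tumor replicate 3, 11 in tumor replicate 5 and 10.9 in wildtype replicate 1, and ran from 8.35 to 10.5 on the others. Its part in the Sox2, Gast and Barx1 values was not tested.

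The 3 arrays with high Sox2 shared further stomach genes. Muc5ac, the mucin of gastric pit cells, read 13.93 in tumor replicate 3, 12.89 in tumor replicate 5 and 12.88 in wildtype replicate 1, against 7.27 to 9.40 in the other tumors and 6.38 to 6.94 in the other non-tumor arrays. Psca was also highest there, at 13.82, 13.44 and 13.40, but was less set apart, at 8.46 to 12.15 in the other tumors. The arrays were not alike in all respects: Gast was 13.22, 7.69 and 10.22 and Cblif 11.50, 7.62 and 7.41 in the same order, and enterocyte lactase, Lct, was 7.67, 8.19 and 9.66. Of 8 squamous forestomach genes 4 rose in tumor versus adjacent tissue (median 0.37), namely the suprabasal keratin genes Krt13 (0.95 ± 0.21, adjusted p = 0.00291) and Krt4 (0.62), the basal keratin gene Krt14 (0.58 ± 0.08, adjusted p = 8.48e-05) and the desmosomal cadherin gene Dsg3 (0.56 ± 0.14, adjusted p = 0.00648). Krt4 did not pass without any one of 8 single arrays, tumor replicates 2 to 6 and adjacent replicates 1, 3 and 4 (adjusted p 0.059 to 0.0947), and Dsg3 did not with mouse as a fixed block (adjusted p = 0.0556). Wildtype replicate 1 held the highest Krt13 (8.97) and Krt4 (7.61) of all arrays. In tumor versus wildtype Krt14 passed (0.45, adjusted p = 0.0189). Krt13 (0.23, adjusted p = 0.699), Krt4 (-0.03, adjusted p = 0.959) and Dsg3 (0.47, adjusted p = 0.142) did not. The basal genes Krt5 (0.02) and Trp63 (0.01) did not pass in tumor versus adjacent tissue. All 8 gastric pit genes (median 6.49) and all 7 mucous neck, pyloric and Brunner gland genes (median 4.57) rose. Muc5ac among them rose by 3.45 ± 1.1 (adjusted p = 0.0265). It lost its call without any one of tumor replicates 3 and 5 or adjacent replicates 2, 3 and 4 (largest adjusted p = 0.0645). Tff2 read 12.44 and 13.74 in adjacent replicates 1 and 2, 7.21 to 7.76 in the other adjacent arrays and 14.24 to 14.39 in tumors. With only the normal arrays that carry acinar transcripts kept, Tff2 (1.23, adjusted p = 0.105), Psca (4.23, adjusted p = 0.12) and Muc5ac (3.49, adjusted p = 0.276) did not pass. Of 10 acinar genes none passed (median -1.93), and of 8 duodenal enterocyte genes 6 fell (median -2.56).

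**Figure D5:**
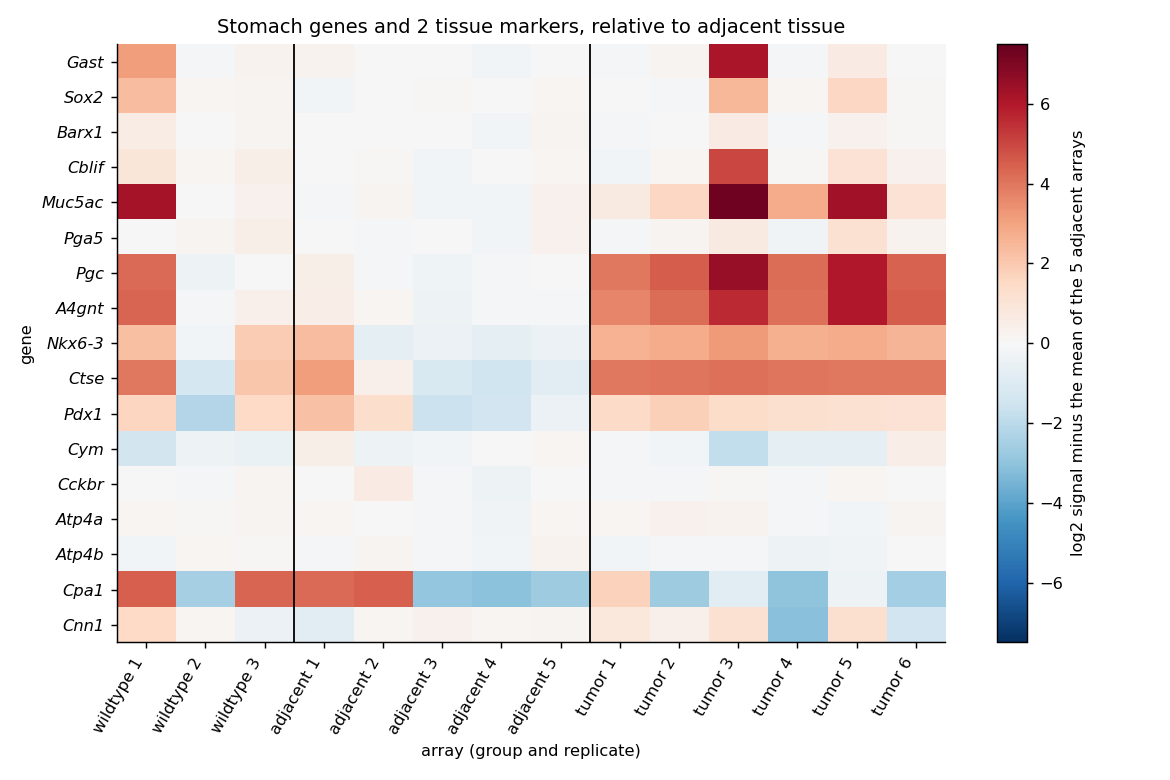
Log2 signal minus the mean of the 5 adjacent arrays (colour) for 15 stomach genes and, at the bottom, the acinar gene Cpa1 and the smooth muscle gene Cnn1, over 14 arrays in columns with black lines between groups. Gast, Sox2 and Muc5ac are red in wildtype replicate 1 and tumor replicate 3, Pgc is red in all tumors and wildtype replicate 1, and Atp4a and Atp4b are pale throughout.

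For the 5 genes of the 10 that spanned at least 2 log2 units, the genes with the most similar profile over the 14 arrays were sought among 1336 genes that span as much. These correlations describe arrays that fall into separate sets, and all genes on an array share its tissue. Pgc was most like A4gnt (r = 0.995), the glycosyltransferase of gland mucin, Bace2 (0.992) and Slc9a4 (0.989), and over the 6 tumors alone r was 0.938, 0.939 and 0.919. Nkx6-3 was most like Ctse (0.966), Anxa10 (0.929) and Car2 (0.918). Sox2 was most like Gsdma2 (0.985), a gasdermin gene, Ly6g6c (0.953) and Cyp4f39 (0.942). Gsdma2 read 10.95 in tumor replicate 3, 10.23 in wildtype replicate 1 and 9.61 in tumor replicate 5, and 5.02 to 5.49 on every other array. Gast was most like Dthd1 (0.986), Aldh3b2 (0.97) and the sodium-iodide transporter gene Slc5a5 (0.966), but without tumor replicate 3 and wildtype replicate 1 these fell to 0.603, 0.75 and 0.528. Cym had no close match: its nearest were Hsd3b3 (0.769), Slc17a4 (0.754) and Vnn1 (0.754), and without the same 2 arrays r was 0.548, 0.724 and 0.346.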

How the data were processed

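Total RNA was read on Affymetrix Mouse Gene 1.0 ST arrays, per the labels. The deposited table holds log2 signal for 35556 probe sets on 14 arrays; the log2 scale was read from the values (2.87 to 14.8). Affymetrix Expression Console 1.1 and build mm9 are named, per the submitters' processing notes; how the signal was background-corrected or normalized is not given in the sources used here. Medians of the arrays were 7.11 to 7.29, so values were used without further scaling. Their number limits the precision. Symbols come from the platform annotation, updated by gene identifier (21698 of 21789 rows with 1 symbol). For 999 genes with several rows the brightest was used, leaving 19938 genes.

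Group means over all arrays were fitted with limma 3.58.1 in R 4.3.3, with mouse as a random block (correlation 0.334), two-sided moderated tests and Benjamini-Hochberg adjustment over all genes. Animals are separate, so p-values measure spread between animals and, for tumor versus adjacent tissue, within 5 mice. The pairing is given by the mouse in the labels; deviations of paired arrays correlated at a mean r of 0.225 (-0.0299 to 0.395), positive in 4 of 5 pairs. The 10 genes and 16 further lists were chosen with earlier results of these data known, so their counts are descriptions. Named are the 10 genes, the 3 most similar genes of each that spans 2 log2 units, and up to 4 genes per list by size of the tumor versus adjacent change, with further list members named after their values were seen. Predicted, olfactory, vomeronasal and immune receptor genes were left out of the similarity search. Promoter windows are RefSeq's on GRCm38.p6, trimmed to the bases before the start. Alternatives covered the block, scaling, filtering, rows per gene, weights, spread, single arrays, acinar arrays and mouse ID letter; leaving out wildtype replicate 1 with tumor replicates 3 and 5 was added after seeing the data.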

Additional observations from a re-analysis of the deposited data

Results flagged for a closer look

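Among 198 groups of adjacent or tumor arrays checked, 21 times a group held an array far from the rest. Chance would flag about 1 in 20 independent groups. These groups share arrays, and some genes were named after their values were seen, so the rates cannot be compared. The wildtype group, with 3 arrays, was too small to check. Of the 10 stomach genes, Gast stood out in tumor replicate 3 (13.22) and Nkx6-3 in adjacent replicate 1 (10.41). Tumor replicate 3 was also apart for Cblif (11.50), Kcnj15 (8.40), Foxq1 (11.80) and Ctse (14.12), the last by a small amount in a narrow group. Adjacent replicate 2, the array with most acinar transcripts, was apart for Bhlha15 (12.31), Rab3d (10.49), Rab26 (9.04), Bace1 (8.73), Foxa2 (8.44), the bombesin receptor gene Grpr (8.64) and, on the low side, Cdx2 (10.61). Adjacent replicate 1 was apart for Gkn3 (9.66), Gata4 (11.64) and Slc9a4 (7.09) on the high side and for the smooth muscle genes Cnn1 (9.79) and Myh11 (9.11) on the low side. The others were Sox21 in adjacent replicate 5 (7.79), Gfap in tumor replicate 4 (6.33, low) and Rab26 in tumor replicate 1 (6.96, low). The causes were not tested.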

How the results depend on the processing

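Pgc in tumor versus adjacent tissue passed in all 27 alternatives (log2 fold change 4.31 to 5.16) and Nkx6-3 in 26 of 27, the exception being mice with ID letter F (2.10). Over the 10 genes, 777 of 790 alternatives kept their direction where called and their side of the threshold, 5 lost and 8 gained a call, and none reversed a call; the cause was not tested. Kcnj15, at 0.05 and not called in tumor versus adjacent tissue, was lowered and called at -0.24 without tumor replicate 3 (single arrays -0.24 to 0.11) and at -0.27 without wildtype replicate 1 and tumor replicates 3 and 5. Calls gained were Cym and Atp4b as given in the report, Atp4b in tumor versus wildtype with array weights, and Nkx6-3 in tumor versus wildtype with array weights, without acinar arrays, for ID letter B (1.81) and without adjacent replicate 1 (adjusted p = 0.0279). Genes called in tumor versus adjacent tissue numbered 6313 (3804 up, 2509 down), 2181 without the non-tumor arrays lacking acinar transcripts and 1719 for ID letter F, where 1 of the 10 was called; median-centring turned the split to 2944 up and 3448 down. The replicate block mattered less: without it 4811 genes and 2 of the 10 were called, and Slc4a2, Nkx2-2, Foxa2, Cdx2, Sfrp2, Elavl4, Krt4 and Muc5ac lost their calls. With mouse as a fixed block Pcsk1, Hdc, Sfrp2, Elavl4 and Dsg3 lost theirs and Kcne2 gained one. In tumor versus wildtype 2817 were called, 9525 with array weights, 504 without the arrays lacking acinar transcripts, 14 for ID letter F and 940 to 4526 when single arrays were left out (940 without wildtype replicate 2, 1090 without replicate 3, 4526 without replicate 1). Of the 10 genes, the count there was 1, and 3 with array weights, 2 without acinar arrays or for ID letter B, 0 without the arrays lacking them or for ID letter F, and 0 to 2 over single arrays. In adjacent tissue versus wildtype 0 genes were called, 1 with median-centring, quantile normalization, the low-value filter or a trended spread, 1691 with array weights, 73 for ID letter F and 0 to 1 over single arrays. Counts within the 16 lists moved by over 1.5 times in 39 of 432 alternatives, mostly with fewer arrays. Keeping only the normal arrays with acinar transcripts cut calls from 7 to 4 for parietal genes and from 4 to 1 for squamous genes. Calls in the acinar list rose from 0 to 9 there, but those arrays were picked by the mean of these same genes, so that count is no test. Array number and unknown background limit what low signals show.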

Other observations

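Genes used here as markers of enteric glia and neurons are not stomach genes. Of 6 measured, 2 rose and 1 fell in tumor versus adjacent tissue, where 19.1% of all genes rose and 31.7% were called. Ret, a receptor kinase of enteric neurons, rose by 1.88 ± 0.16 (adjusted p = 1.88e-06 in limma), and S100b, a calcium-binding protein of glia, by 1.04 ± 0.11 (adjusted p = 7e-06). Sox10 (0.01 ± 0.13, adjusted p = 0.972) and Gfap (0.11 ± 0.07, adjusted p = 0.282), which define glia, did not pass, although Gfap did without tumor replicate 4 (adjusted p = 0.0497). Elavl4, a neuronal RNA-binding protein gene, fell by 0.24 (adjusted p = 0.0263), and its adjusted p was 0.0511 to 0.102 without any one of 5 single arrays.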
